A study of Mus musculus with 45 samples.

Results

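The genes described here are 9 markers of brain endothelium and of the blood-brain barrier: the transporters Slco1c1, Mfsd2a and Slc2a1, the junction and adhesion genes Cldn5, Pecam1 and Cdh5, and the growth factor receptors Flt1, Kdr and Tek. They were taken by name out of 53491 genes in the tables. Slco1c1 was chosen by a measured value, its rise in level at 0 h from E11.5 to E14.5, the steepest between successive stages, so that difference is given as a description. Of the 9 genes, 3 were abundant at 1 stage or more and 6 were near the limit of detection at every stage, so the marker label did not hold for endothelium: these libraries held few endothelial transcripts.

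Brain endothelium seals the capillary wall with tight junctions, of which Cldn5 (claudin-5) is the main strand protein, and adherens junctions built on Cdh5 (VE-cadherin), with Pecam1 (CD31) at the contacts between cells. Flt1 and Kdr are the receptors through which vascular endothelial growth factor (VEGF) guides vessel growth, and Tek (TIE2) is the angiopoietin receptor. Barrier cells carry solutes through transporters. Slc2a1 (GLUT1) brings in glucose, Mfsd2a carries lysophosphatidylcholine with docosahexaenoic acid, and Slco1c1 (OATP1C1) takes up thyroxine. The transporters are not exclusive to vessels: Slc2a1 is used by many dividing cells, and Slco1c1 is also known from astrocytes and the choroid plexus.

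Newly made and older RNA were told apart by SLAM-seq, in which alkylated 4-thiouridine (4sU) is read as C in place of T. Cells of the wild-type (WT) mouse cortex were taken at E11.5 or at E14.5 or E16.5, in embryonic days. All cells were dissociated, grown in vitro, given 100 uM 4sU for 20 h and then chased with 5 mM uridine for 0, 2, 4, 8 or 12 h. Each stage had 3 pools, A to C, of 7 embryos each at E11.5 and 2 each later, and each pool was divided over the 5 times, giving 45 libraries, so the times of a letter share cells within a stage and letters mean nothing between stages. No endothelial enrichment was used, and 20 h or more of culture stands between the tissue and every value. Levels are in cpm, the reads of a gene per 1000000 reads of a library total that exceeded its assigned reads. The label is the share of covered T positions read as C.

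The libraries held 15.9 to 43.9 M assigned reads (median 33.0 M), and 1 read was worth 0.0207 to 0.0564 cpm. The total behind cpm was larger than the assigned reads. In E11.5 pool C it was 26.0 M against 23.6 M at 0 h, and 43.6 M against 36.1 M at 12 h. The fits used counts in place of cpm. In bulk libraries, fewer cells of a type and less RNA per cell cannot be told apart. At 0 h the 10 fixed endothelium markers summed to 6.04 to 7.69 cpm at E11.5, 1.87 to 4.39 cpm at E14.5 and 4.46 to 5.47 cpm at E16.5, and none of them was at 0 in all 3 libraries of a stage. The 17 radial glia and astrocyte markers summed to 4563 to 4707 cpm at E11.5, 3224 to 3768 cpm at E14.5 and 1937 to 2169 cpm at E16.5, with Gjb6 at 0 in all 3 libraries of each stage. One pool stood apart in its cell content: Ttr, the transthyretin of choroid plexus epithelium, lay at 279 to 392 cpm in all 5 libraries of E16.5 pool B and at no more than 0.134 cpm in E16.5 pools A and C. Results that touch E16.5 are therefore also given without pool B where that moved a call.

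The promoters of the 3 abundant genes are shown because these transcripts carried nearly all of the signal. From E11.5 to E14.5 these transcripts moved apart, Slco1c1 upward and both others downward, while from E14.5 to E16.5 all 3 went down. The sequences are from RefSeq on GRCm38.p6, 250 bases before to 50 after the start, 5′ to 3′ on the gene's strand, and 7 of the 9 genes matched, Pecam1 and Cdh5 not. Slco1c1 lies at chr6:141524104-141524403 on the plus strand, Mfsd2a at chr4:122961139-122961438 on the minus strand and Slc2a1 at chr4:119108495-119108794 on the plus strand. Capitals mark every match on either strand to GGAA (the core bound by ETS factors), TGTTTAC (FOX) or CTTTGA (TCF/LEF).

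Slco1c1: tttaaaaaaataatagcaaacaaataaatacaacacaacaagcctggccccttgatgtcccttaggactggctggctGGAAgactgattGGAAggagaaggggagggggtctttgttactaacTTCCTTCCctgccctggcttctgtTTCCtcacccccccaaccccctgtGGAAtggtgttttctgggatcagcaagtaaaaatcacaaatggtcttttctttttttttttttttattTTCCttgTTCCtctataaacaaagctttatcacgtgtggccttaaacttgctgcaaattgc

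Mfsd2a: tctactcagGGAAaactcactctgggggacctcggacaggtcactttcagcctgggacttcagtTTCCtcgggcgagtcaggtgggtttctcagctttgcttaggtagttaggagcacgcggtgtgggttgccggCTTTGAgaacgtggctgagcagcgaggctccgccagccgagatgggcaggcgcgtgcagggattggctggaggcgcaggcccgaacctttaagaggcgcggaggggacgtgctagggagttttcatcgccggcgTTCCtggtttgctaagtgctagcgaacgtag

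Slc2a1: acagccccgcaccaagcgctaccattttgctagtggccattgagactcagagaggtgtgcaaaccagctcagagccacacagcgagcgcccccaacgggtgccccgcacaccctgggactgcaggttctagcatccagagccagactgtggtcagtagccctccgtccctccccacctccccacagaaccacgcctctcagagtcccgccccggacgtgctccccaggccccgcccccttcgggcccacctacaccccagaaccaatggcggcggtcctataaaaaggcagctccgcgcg

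The Slco1c1 window held 8 GGAA matches and a GC content of 42.0%, the Mfsd2a window 3 at 60.3% GC, and the Slc2a1 window none at 65.3% GC. Among the others, Kdr held 5, Flt1 4, Tek 2 and Cldn5 none. Over 27025 promoters of this length, 95.9% held at least 1 GGAA and the median was 3, so a match sets no gene apart. None of the 7 windows held TGTTTAC (3.55% of all promoters), and only Mfsd2a held CTTTGA, once (16.2% of all promoters). A match of letters is not a site, and its absence from this window says nothing of a factor.

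The abundant transporters were among the better expressed coding genes, and the 6 junction and receptor genes lay below the median coding gene at each stage. At E11.5 and 0 h these 6 lay above 29.5% (Tek) to 43.6% (Cdh5) of coding genes. Per length at 0 h and E11.5, Mfsd2a was at 48.6 ± 7.2 cpm per kb of exon (SD, n = 3), above 96.3% of 21285 coding genes, and Slc2a1 at 34.0 ± 0.85 cpm per kb, above 93.8%. Next, far below, came Cdh5 at 0.275, Cldn5 at 0.164, Flt1 at 0.147, Kdr at 0.131, Pecam1 at 0.110, Slco1c1 at 0.0484 and Tek at 0.0116 cpm per kb, where the median coding gene was at 0.883. Between neighbours in this order from Cdh5 down to Pecam1 the pools overlapped, while Slco1c1 lay below Pecam1 and above Tek in all pools. At E14.5 the order was Mfsd2a (30.3 ± 1.6), then Slc2a1 (15.8 ± 0.90) and Slco1c1 (15.8 ± 2.6), which did not differ beyond their spread, and the other 6 lay at 0.0287 to 0.119 cpm per kb. At E16.5 Mfsd2a (14.7 ± 0.62), Slc2a1 (9.71 ± 0.34) and Slco1c1 (8.63 ± 1.4) stood closer together, the pools of the last pair overlapped, and the other 6 lay at 0.0285 to 0.183 cpm per kb. The summed level of the 3 transporters at 0 h was 212 to 241 cpm at E11.5, 194 to 215 cpm at E14.5 and 105 to 122 cpm at E16.5, against 4.50 to 5.79, 1.06 to 3.27 and 3.08 to 4.25 cpm for the 6 junction and receptor genes.

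**Figure D1:**
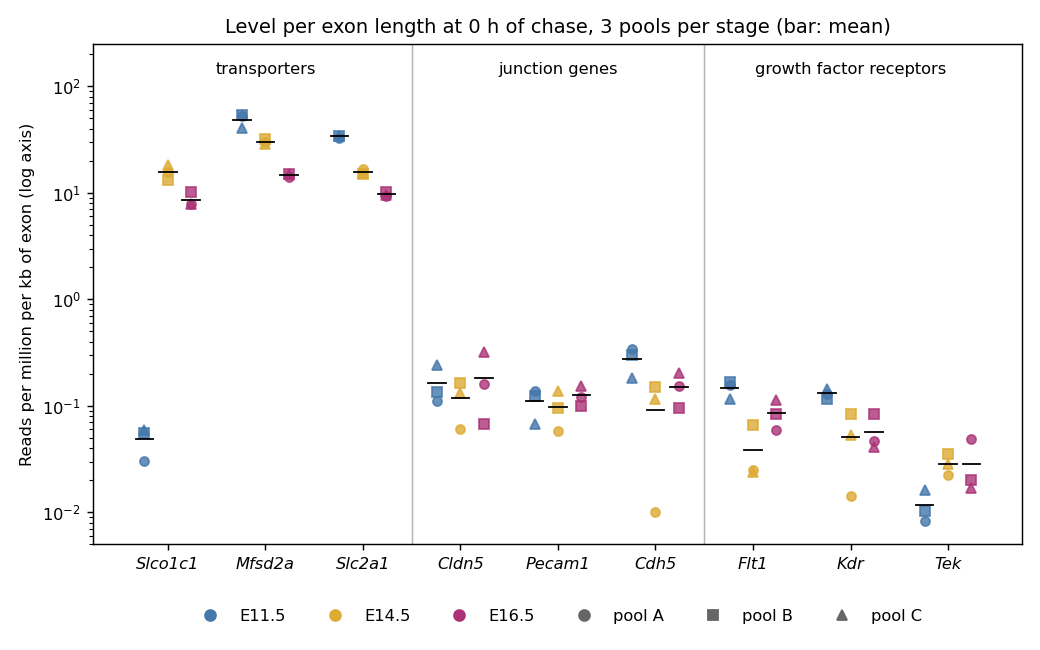
Level in cpm per kb of exon (log axis) at 0 h of chase for each gene, with 1 point per pool (n = 3 per stage) and a bar at the mean. Slco1c1 moves from 0.0484 at E11.5 to 15.8 at E14.5, Mfsd2a and Slc2a1 step down at each stage, and the 6 junction and receptor genes have means of 0.0116 to 0.275.

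Slco1c1 (chr6:141524368-141570177, plus strand, GRCm38) was all but silent at E11.5. Pools A, B and C held 0.156, 0.289 and 0.308 cpm at 0 h, which is 4, 6 and 8 reads. At E14.5 the same order of pools read 80.9, 68.9 and 95.6 cpm, and at E16.5 40.6, 53.2 and 40.5 cpm. The stages did not overlap: the mean was 326-fold higher at E14.5 than at E11.5 (log2 fold change 8.59, SE 0.22), and still 178-fold higher at E16.5 than at E11.5. This rise is the value that chose the gene and is not tested. In the 12 h wells of the same pools, which the choice did not use but which share its cells, the E14.5 to E11.5 log2 difference was 5.57.

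From E14.5 to E16.5 Slco1c1 stepped back down, by 1.83-fold in the means. The fitted log2 change was -0.84 (SE 0.15), and every E16.5 pool lay below every E14.5 pool. Because its E14.5 libraries at 0 h had taken part in its choice, this step too is a description with no test. In the 12 h wells, from the same pools, the change was -0.52. Without E16.5 pool B, the pool that carried Ttr and the highest Slco1c1 of its stage (51.4 cpm over 5 times, against 43.2 and 42.3 cpm), the change was -0.98. Choroid plexus markers went the other way at both steps, summing to 5.43 to 9.84 cpm at E11.5, 1.48 to 1.88 cpm at E14.5 and 10.5 to 332 cpm at E16.5. Among them Prlr was at 0 in all 3 libraries of both earlier stages and Kcne2 at E11.5. The radial glia list above fell in its sum at both steps, but its genes went both ways. Of 15 tested, 4 were called higher and 3 lower at the first step, and 2 higher and 4 lower at the second. The part of either list in the Slco1c1 levels was not tested. At E14.5 Ttr was at no more than 0.0542 cpm in every library, and Cldn1 (0.495 cpm) and Sostdc1 (0.341 cpm) had the highest choroid plexus means at 0 h.

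Mfsd2a and Slc2a1 fell at each step at 0 h. Mfsd2a (chr4:122946850-122961188, minus strand) read 117, 119.9 and 90.5 cpm at E11.5, 67.8, 71.9 and 64.8 cpm at E14.5 and then 31.5, 33.9 and 33.9 cpm at E16.5. Slc2a1 (chr4:119108711-119137983, plus strand) read 116, 120.7 and 121 cpm, then 59.1, 53.2 and 54.3 cpm, then 33.0, 35.3 and 33.8 cpm. At 0 h no library of one stage overlapped the next for either gene, while at 12 h Mfsd2a in E11.5 pool C (65.0 cpm) lay below E14.5 pools B and C (76.0 and 68.3 cpm). At 0 h, from E11.5 to E16.5 Mfsd2a fell 3.30-fold and Slc2a1 3.50-fold in the means. An antisense transcript, Gm12868, overlaps Slc2a1 exons, but it held 0 to 2 reads in any library.

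The stages were tested with edgeR's quasi-likelihood test on the deposited counts at 0 h, and a gene was called at an adjusted p under 0.05 with a log2 fold change beyond 1. From E11.5 to E14.5, 8.14% of 18408 genes were called higher and 8.00% lower. Of the 8 genes other than Slco1c1, 7 were tested (Tek was too low), 3 were called lower and 0 higher. Slc2a1 fell by 1.04 on the log2 scale (SE 0.065, edgeR adjusted p = 4.6e-08). Flt1 (chr5:147561604-147726011, minus strand) was lower by a log2 change of -1.86 (SE 0.42, edgeR adjusted p = 0.0025), from 2.11, 2.26 and 1.58 cpm at E11.5 to 0.340, 0.890 and 0.322 cpm at E14.5. Kdr (chr5:75932827-75978458, minus strand) was lower by -1.49 (SE 0.54, edgeR adjusted p = 0.037), from 1.17, 1.06 and 1.31 cpm to 0.127, 0.759 and 0.483 cpm, but its edgeR adjusted p was 0.0635 to 0.0925 without any 1 of E11.5 pools A, B and C or of E14.5 pools A and C. Both VEGF receptors were thus lower at E14.5 in every pool, on 6 to 27 reads a library.

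The remaining genes were not called at this step. Mfsd2a changed by -0.64 (SE 0.094, edgeR adjusted p = 9.5e-05), within the 2-fold limit. Cdh5 (chr8:104101625-104144511, plus strand) went from 1.45, 1.25 and 0.769 cpm to 0.0425, 0.627 and 0.483 cpm, a log2 change of -1.57 (SE 0.64) whose adjusted p was 0.058 by edgeR and 0.018 by DESeq2. Its pools did not overlap between the stages, but E14.5 pool A rests on 2 reads. Cldn5 (chr16:18776847-18778262, plus strand; 0.156, 0.192 and 0.346 cpm, then 0.0849, 0.231 and 0.188 cpm) and Pecam1 (chr11:106654217-106750628, minus strand; 0.861, 0.769 and 0.423 cpm, then 0.361, 0.594 and 0.859 cpm) overlapped, with edgeR adjusted p of 0.66 and 0.74, and depth limits what could be seen at 4 to 32 reads. Tek (chr4:94739289-94874976, plus strand) held 1, 1 and 2 reads at E11.5 and 5 reads in each E14.5 pool.

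From E14.5 to E16.5, 7.19% of genes were called higher and 5.92% lower, and among the 7 tested genes 1 was called higher, Flt1, and 1 lower, Mfsd2a. Flt1 rose by a log2 change of 1.19 (SE 0.41, edgeR adjusted p = 0.030), to 0.799, 1.14 and 1.52 cpm, and 1 of its E14.5 pools overlapped these. That call was lost without E14.5 pool A or C or E16.5 pool C (edgeR adjusted p = 0.11 each), or without E16.5 pool B (0.0501). Mfsd2a changed by -1.01 (SE 0.095, edgeR adjusted p = 2.4e-06), just past the fold limit, and by -0.99 with DESeq2, -0.97 without E14.5 pool B and -0.93 without E16.5 pool A, which are just inside it. Slc2a1 changed by -0.68 (SE 0.065, edgeR adjusted p = 3.1e-06). Cldn5, Pecam1, Cdh5 and Kdr gave log2 changes of 0.55, 0.25, 0.78 and 0.36 with edgeR adjusted p of 0.33 to 0.63, and each of them had overlapping pools.

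The 6 low genes shared a pool pattern at E14.5. Averaged over the 5 times, each was lowest in pool A: Cdh5 at 0.210 cpm against 0.586 in B and 0.429 in C, Kdr at 0.164 against 0.536 and 0.416, Flt1 at 0.271 against 0.665 and 0.388, Cldn5 at 0.117 against 0.231 and 0.229, Pecam1 at 0.510 against 0.739 and 0.651, and Tek at 0.0741 against 0.125 and 0.143. Slco1c1 did not follow it, being lowest in pool B (60.8 cpm, against 73.8 in A and 84.1 in C), where Mfsd2a was highest (77.0 cpm). At E11.5 the pools were alike for Flt1 (1.31 to 1.35 cpm) and Kdr (1.54 to 1.62 cpm), and Cdh5 was lower in pool C (0.492 cpm) than in A or B (1.20 and 1.22 cpm). These pool differences are described over wells that share cells and were not tested.

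**Figure D2:**
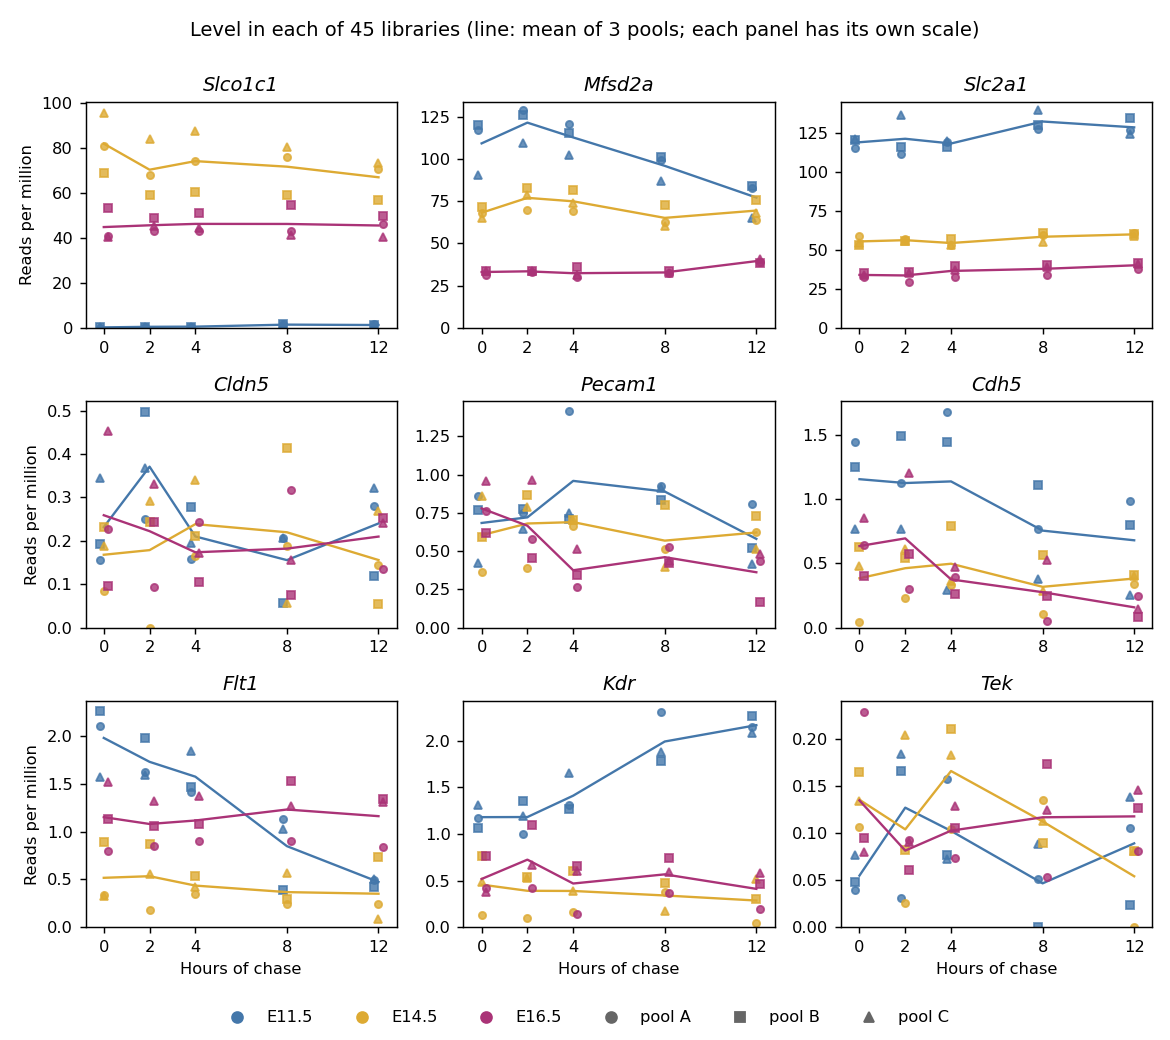
Level of each gene in cpm against hours of chase in all 45 libraries, with pools as symbols, stages as colours and a line at the mean of 3 pools; each panel has its own scale from 0. At E11.5 Flt1 goes down and Kdr goes up through the chase, and the means of the transporters keep their stage order at every time.

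Because the chase adds 12 h of culture, total levels at 12 h were set against 0 h within each stage, with calls at an edgeR adjusted p under 0.05. At E11.5, 10.3% of 18877 genes were called higher and 8.18% lower, and of the 7 genes tested besides Slco1c1, 2 were higher and 2 lower. With the pool as a block, 17.8% of all genes were called higher and 16.1% lower, and again 2 and 2 of these 7. The VEGF receptors went opposite ways. Kdr rose from 1.17, 1.06 and 1.31 cpm to 2.14, 2.27 and 2.09 cpm (log2 change 1.08, SE 0.20, edgeR adjusted p = 0.0048), with no overlap, and by 8 h it was already at 2.31, 1.78 and 1.88 cpm. Flt1 fell from 2.11, 2.26 and 1.58 cpm to 0.492, 0.425 and 0.504 cpm (log2 change -1.87, SE 0.27, edgeR adjusted p = 0.0012). Against 2 h the changes were 1.08 for Kdr and -1.66 for Flt1, and the Flt1 call held without any 1 pool, while that of Kdr was lost without pool A (edgeR adjusted p = 0.054) or pool B (0.0752).

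The abundant transporters changed little at E11.5. Mfsd2a went from 117, 119.9 and 90.5 cpm to 82.7, 83.8 and 65.0 cpm (log2 change -0.33, SE 0.10, edgeR adjusted p = 0.045; 0.27 without pool A and 0.16 without pool B). Slc2a1 went from 116, 120.7 and 121 cpm to 127, 134 and 125 cpm (log2 change 0.29, SE 0.063, edgeR adjusted p = 0.0094; 0.072 without pool B). Scaling by library totals alone shifts all genes of this comparison by a median of -0.11 and gives -0.42 and 0.20 for these genes. Cdh5 (-0.69), Cldn5 (0.24) and Pecam1 (-0.03) did not pass, with edgeR adjusted p of 0.29 to 0.97.

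Slco1c1 climbed through the E11.5 chase while remaining rare. It read 0.437, 0.524 and 0.551 cpm at 2 h, 1.64, 1.56 and 1.20 cpm at 8 h and 1.69, 1.25 and 0.940 cpm at 12 h, on 41 to 53 reads at 12 h. Since the 0 h libraries chose the gene, the test is 12 h against 2 h, added after the data were seen: the log2 change was 1.50 (edgeR adjusted p = 0.0055), where 8.52% of genes were called higher, and every 12 h library lay above every 2 h library. At 12 h the highest E11.5 library was at 1.69 cpm and the lowest E14.5 library at 56.7 cpm. Of 15 tested radial glia and astrocyte markers, 7 were called higher and 1 lower from 0 h to 12 h at E11.5 (10.3% of all genes higher). Slc1a3, the astroglial glutamate transporter, went from 99.0 ± 5.3 to 210.5 ± 14 cpm (SD, n = 3). The summed list did not rise, at 4563 to 4707 cpm at 0 h and 4343 to 4658 cpm at 12 h. The list also had 6 higher and 1 lower at E14.5, and 10 and 1 at E16.5. There the mean Slco1c1 level at 12 h was 0.82 and 1.02 times that at 0 h. The part of these markers in the Slco1c1 levels was not tested.

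At E14.5, 6.29% of 18784 genes were called higher and 5.63% lower between 0 h and 12 h, and 0 of the 7 genes tested besides Slco1c1 were called by edgeR or DESeq2, or had an unadjusted edgeR p under 0.05. With the pool as a block, 10.8% of all genes were called higher and 9.97% lower, and again 0 of these 7. Slco1c1 went from 80.9, 68.9 and 95.6 cpm to 70.7, 56.7 and 73.2 cpm (log2 change -0.27, SE 0.12), a description since the 0 h libraries chose the gene. Between 2 h and 12 h, in wells of the same pools, its log2 change was -0.12, also a description. Mfsd2a and Slc2a1 gave 0.04 and 0.10.

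At E16.5, 13.1% of 18733 genes were called higher and 11.4% lower, and of the 8 genes other than Slco1c1, 2 were higher and 1 lower. With the pool as a block 17.1% of all genes were called lower and 2 of these 8, Cdh5 and Pecam1. Mfsd2a rose from 31.5, 33.9 and 33.9 cpm to 39.3, 38.6 and 40.8 cpm (log2 change 0.28, SE 0.058, edgeR adjusted p = 0.0069; 0.079 without pool A). Slc2a1 rose from 33.0, 35.3 and 33.8 cpm to 37.9, 41.9 and 40.8 cpm (log2 change 0.25, SE 0.058, edgeR adjusted p = 0.011; 0.055 without pool A and 0.079 without pool C). Cdh5 fell from 0.647, 0.403 and 0.855 cpm to 0.244, 0.0839 and 0.145 cpm, which is 9, 2 and 3 reads at 12 h (log2 change -1.95, SE 0.48, edgeR adjusted p = 0.015; 0.13 without pool C). Pecam1 went from 0.761, 0.616 and 0.961 cpm to 0.434, 0.168 and 0.484 cpm, a log2 change of -1.06 with an edgeR adjusted p of 0.15, and of -1.24 with 0.024 once the pool was a block. Both junction genes were lower at 12 h in every pool, while Flt1 gave 0.004, Kdr -0.29, Tek -0.08, Cldn5 -0.28 and Slco1c1 0.04, none of which passed.

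Whether the chase change differed between stages was tested in 1 fit of the 18 libraries, added after the data were seen. The difference between E16.5 and E11.5 was called for 7.36% of 17224 genes (16.3% with the pool as a block), and for Mfsd2a, whose change was higher at E16.5 by 0.60 on the log2 scale (SE 0.12, edgeR adjusted p = 0.0057), down in each E11.5 pool and up in each E16.5 pool. The Flt1 difference was 1.86 (edgeR adjusted p = 0.19, and 0.015 with the pool as a block). For E14.5 minus E11.5, 5.32% of genes were called and 0 of the 7 tested besides Slco1c1, and 12.0% of genes with the block. Calls gained with the block were those of Kdr (-1.69, edgeR adjusted p = 0.32, then 0.022), Mfsd2a (0.33, edgeR adjusted p = 0.15, then 0.011) and Slc2a1 (-0.24, edgeR adjusted p = 0.13, then 0.041).

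**Figure D3:**
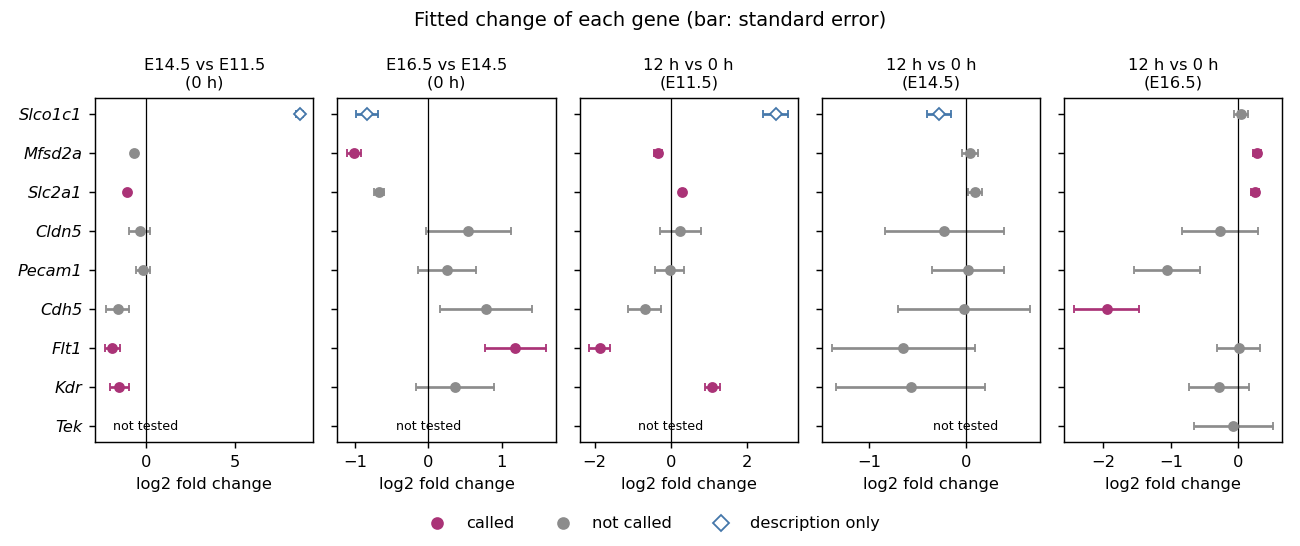
Fitted log2 fold change of each gene (point) with its standard error (bar) in the stage comparisons at 0 h and in 12 h against 0 h within each stage; the axes differ between panels. Purple points passed the call rule of that comparison, and open diamonds are the Slco1c1 values that rest on the 0 h libraries which chose the gene, at E11.5 and E14.5, and have no test.

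The label gave a further reading of the transporters. Only genes with over 500 covered T positions in a library were read, a limit that the 3 transporters passed in every library but for Slco1c1 at E11.5, which passed it at 8 h in pools A and C and at 12 h in all pools. The other genes passed it at some times at best: at E11.5 and 0 h, Flt1 in pool C was just inside with 547 positions and Kdr in pool C just outside with 470. At 0 h Slco1c1 carried 1.41, 1.41 and 1.23% converted T positions at E14.5, at a mean percentile of 82.8 ± 3.9 (SD, n = 3) among the genes of the same library. At E16.5 it carried 0.984, 0.864 and 0.885%, at a mean percentile of 2.13 ± 0.87. The stages did not overlap, although the exact two-sided permutation test with 3 pools a stage cannot go below p = 0.1, the value it gave.

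The rates of Mfsd2a and Slc2a1 were higher at E16.5, as was the overall rate of the libraries. From E14.5 to E16.5 Mfsd2a went from 1.13 ± 0.14 to 1.52 ± 0.13% (SD, n = 3), and Slc2a1 from 1.16 ± 0.18 to 1.67 ± 0.08%, in libraries whose overall rate was 1.10 ± 0.08% and 1.86 ± 0.06%. Their mean percentiles went from 48.3 to 19.6 and from 54.9 to 29.5. Slco1c1 was thus the transporter whose own rate was lower at E16.5.

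**Figure D4:**
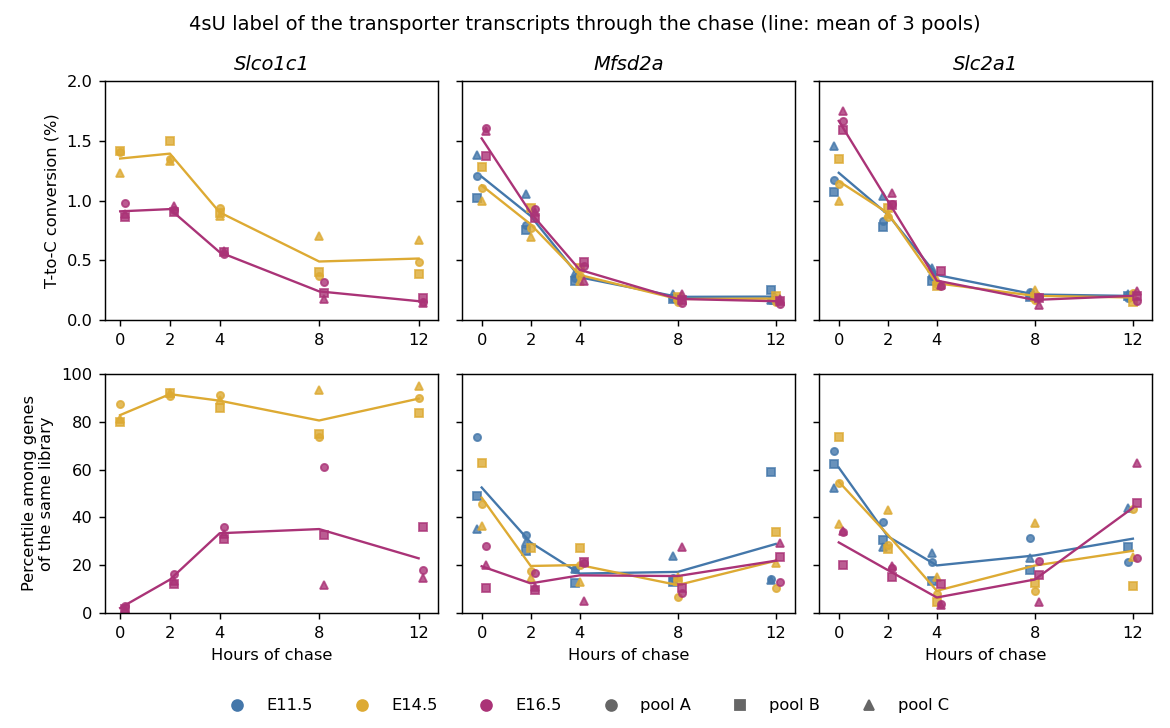
Upper row: share of covered T positions read as C (%) against hours of chase for the 3 transporters, by pool (symbols) and stage (colours), with a line at the mean. Lower row: percentile of that rate among genes with over 500 covered T positions in the same library; Slco1c1 at E11.5 is not drawn, being mostly under that limit. Slco1c1 holds its label to 2 h. Its percentile lies high at E14.5, and at E16.5 it is 1.56 to 3.14 at 0 h and 11.8 to 61.1 at 8 h.

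Slco1c1 lost its label slowly. At 2 h the rate was still 103.2 ± 6.8% (SD, n = 3) of the 0 h rate at E14.5 and 102.4 ± 7.3% at E16.5, when Mfsd2a was at 71.0 ± 2.3% and 59.2 ± 2.8% and Slc2a1 at 78.1 ± 9.8% and 59.9 ± 1.5%. At 12 h the Slco1c1 rate was 34.8, 27.3 and 54.6% of its 0 h rate at E14.5 and 15.3, 21.6 and 16.1% at E16.5, without overlap. The mean overall rate of the libraries also fell further at E16.5, from 1.86% at 0 h to 1.50% at 2 h and 0.248% at 12 h. At E14.5 it went from 1.10% to 0.973% and 0.259%. Mfsd2a kept 17.1 ± 7.0, 16.2 ± 2.5 and 10.5 ± 1.7% at the 3 stages in order, and Slc2a1 16.7 ± 1.8, 16.8 ± 4.7 and 12.2 ± 2.4%.

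Half-lives were refitted as an exponential decay in each pool. The Mfsd2a half-life was 3.14 ± 0.29, 3.18 ± 0.13 and 2.49 ± 0.32 h (SD, n = 3) in order of stage, and that of Slc2a1 was 3.17 ± 0.13, 3.26 ± 0.74 and 2.25 ± 0.19 h. Both ranked low at every stage, at percentiles 14.3 to 21.4 of 10686 to 11850 transcripts, whose medians were 4.43, 4.60 and 3.48 h. Scaled to the other transcripts of each pool (z-scores over 9505 transcripts measured at all stages), limma called 3.15% of transcripts as differing between stages but neither of these, with adjusted p of 0.88 and 0.90. The difference between E16.5 and E11.5 was 0.05 z units for Mfsd2a (95% interval -0.26 to 0.36) and -0.10 for Slc2a1 (-0.46 to 0.26).

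For Slco1c1 the E14.5 pools gave half-lives of 6.37, 6.27 and 12.1 h (percentile 93.2 of their mean), and the E16.5 pools gave 5.27, 5.95 and 5.43 h (percentile 86.4). In a fit of the transcripts measured at those 2 stages, added after the data were seen, the difference was -0.36 z units (95% interval -1.82 to 1.10, limma adjusted p = 0.77), and it turned to 0.34 without E14.5 pool C, the pool with 12.1 h. The other 6 genes gave no half-life at any stage. Their summed label at 0 h was 1.20 ± 0.097, 1.87 ± 0.46 and 1.22 ± 0.32% (SD, n = 3) in order of stage, and 0.0997 ± 0.084, 0.275 ± 0.18 and 0.194 ± 0.17% at 12 h, on as few as 29 reads a library.

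Sequence features that played no part in the choice varied widely among the 9. The 3′ untranslated region ran from 160 nt in Pecam1 to 2616 nt in Flt1, with 391 nt in Mfsd2a, 649 nt in Slco1c1 and 1537 nt in Slc2a1. Medians are over 11894 coding genes with a mean of at least 1 cpm, here 1084 nt. Its GC content was lowest in Slco1c1 (31.0%) and highest in Cldn5 (57.4%), with a median of 44.4% over those expressed coding genes. Coding lengths ran from 657 nt in Cldn5 to 4038 nt in Kdr, with a median of 1449 nt.

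The wider gene lists place these genes among their pathways. The endothelium list of 10 includes the 6 junction and receptor genes, so its counts partly repeat their results. From E11.5 to E14.5, 8.14% of all genes were called higher and 8.00% lower. Of 8 tested endothelium markers, 3 were lower by edgeR and 0 higher, at an unadjusted p under 0.05 too (median log2 change -1.32, where all genes had -0.01). These were Flt1, Kdr and, named after its values were seen, Egfl7, a secreted factor of vessels, from 1.22 ± 0.27 to 0.496 ± 0.062 cpm. In the list of junction and surface genes, 9 of 25 were lower and 2 higher (median -0.87), with Ecscr from 2.03 ± 0.12 to 0.239 ± 0.14 cpm (SD, n = 3) and Vwf, the clotting factor carrier, from 1.57 ± 0.77 to 0.184 ± 0.068 cpm, while Ptprb (VE-PTP) rose from 0.148 ± 0.049 to 0.497 ± 0.17 cpm and Ramp2 from 0.690 ± 0.21 to 1.45 ± 0.25 cpm. Among 21 vascular ligands and receptors, 6 were lower and 2 higher (median -0.15), with the receptors of the TGF-β family Acvrl1 (2.58 ± 0.30 to 0.296 ± 0.14 cpm) and Eng (6.21 ± 1.5 to 0.854 ± 0.34 cpm) lower and the Notch ligand Dll4 (2.08 ± 0.40 to 6.75 ± 0.34 cpm) and the VEGF co-receptor Nrp1 (25.3 ± 1.8 to 61.8 ± 1.5 cpm) higher. Of 16 endothelial transcription factors, 11 were lower and 3 higher (median -1.62), led by Tal1 (3.19 ± 0.84 to 0.121 ± 0.067 cpm) and Foxc1 (2.92 ± 0.57 to 0.104 ± 0.0046 cpm). Some lists of other cell types fell at the same step: 9 of 10 tested mural cell markers, 8 of 8 erythroid markers and 6 of 8 meningeal fibroblast markers were lower (medians -1.88, -4.12 and -4.14), and 1 meningeal marker, Dcn, was higher (2.72 ± 0.18 to 8.20 ± 0.89 cpm). Summed, the mural, erythroid and meningeal lists went from 97.2 to 111, 1711 to 3782 and 477 to 710 cpm to 22.8 to 29.6, 48.6 to 72.5 and 37.1 to 47.8 cpm. Of 11 tested microglia and macrophage markers 1 was lower, near the share over all genes, and 0 higher by edgeR (2 at an unadjusted p under 0.05, median 0.26). Of 15 tested radial glia and astrocyte markers 3 were lower and 4 higher (median -0.45). None of the 13 mural markers but Higd1b, at both stages, and Kcnj8, at E14.5, was at 0 in all 3 libraries, Gata1 was at 0 among the erythroid markers at E14.5, and the part of these cell types in the change of the vascular genes was not tested.

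Lists of pathways that act on the barrier were read the same way, beside 8.14% of all genes higher and 8.00% lower. The 1 higher call in each of the transporter and hypoxia lists below is within that share. Of 17 genes of Wnt and norrin signalling, which induces barrier properties, 3 were lower and 0 higher by edgeR (3 at an unadjusted p under 0.05; median -0.30), among them Adgra2 (GPR124), a co-receptor for Wnt7 ligands, from 5.14 ± 0.30 to 0.520 ± 0.10 cpm, and Tcf7l1 from 27.7 ± 3.9 to 4.19 ± 0.21 cpm. Of 21 barrier transporters and transcytosis genes, 4 were lower and 1 higher (median -0.21), with the caveolae genes Cav1 (27.3 ± 1.7 to 7.80 ± 2.4 cpm) and Cavin2 (0.580 ± 0.044 to 0.210 ± 0.074 cpm) lower and the cationic amino acid transporter Slc7a1 (206 ± 16 to 429.8 ± 14 cpm) higher. Among 14 tested hypoxia-response genes 1 was higher, Ndrg1 (10.2 ± 2.5 to 120.2 ± 9.1 cpm), and none lower by edgeR (2 at an unadjusted p under 0.05; median 0.14).

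From E14.5 to E16.5, 7.19% of all genes were higher and 5.92% lower. Of 8 tested endothelium markers, 2 were higher, Flt1 and Esam (0.355 ± 0.068 to 0.720 ± 0.080 cpm), and 0 were lower by edgeR, at an unadjusted p under 0.05 too (median 0.66, where all genes had -0.002). In the junction list 3 of 25 were higher and 2 lower (median -0.04). The tight junction genes Ocln (0.385 ± 0.13 to 0.818 ± 0.24 cpm) and Cgn (0.892 ± 0.19 to 2.01 ± 0.35 cpm) were among those higher, and the adhesion genes Mcam (12.3 ± 0.95 to 5.20 ± 0.45 cpm) and Jam3 (37.4 ± 3.6 to 17.1 ± 1.1 cpm) were lower. Among 21 ligands and receptors 3 were higher, Adm (1.27 ± 0.60 to 4.73 ± 0.14 cpm) and Pdgfb (0.368 ± 0.12 to 1.14 ± 0.36 cpm) most, and 3 lower, Angpt2 (5.59 ± 3.1 to 1.15 ± 0.16 cpm) and Calcrl (5.5 ± 1.1 to 1.42 ± 0.60 cpm) most. Of 16 transcription factors 4 were higher and 3 lower (median 0.69), with the flow-response factor Klf2 from 0.372 ± 0.028 to 1.44 ± 0.081 cpm. In the Wnt list 3 of 17 were lower and 0 higher by edgeR (3 at an unadjusted p under 0.05), Lef1 (15.1 ± 3.0 to 3.95 ± 1.5 cpm) and Tcf7l2 (14.9 ± 2.5 to 4.68 ± 0.73 cpm) most. In the transporter list 4 of 21 were lower and 2 higher, the large neutral amino acid transporter Slc7a5 going from 851 ± 59 to 368 ± 11 cpm, and 3 of 10 mural markers were higher and 0 lower (0 also at an unadjusted p under 0.05; median 0.78). Of 8 meningeal markers 5 were higher and 1, Prrx1 (27.8 ± 6.0 to 13.0 ± 0.45 cpm), was lower (median 1.33).

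The genes whose pool pattern was most like that of Slco1c1, by Pearson's r of log2(cpm + 1) over the 9 pools among 14405 genes, were Rab30 (r = 0.999), Nuak1 (0.999), Tdrd3 (0.998), Smyd3 (0.998) and Dio2, the type 2 iodothyronine deiodinase (0.998). Dio2 went from 2.18 cpm at E11.5 to 49.2 cpm at E14.5 and 37.6 cpm at E16.5, and Nuak1 from 75.6 to 444 and 362 cpm. The nearest to Slc2a1 were Qars, Dusp9, Mest, Glb1 and Ggact (r = 0.996 to 0.997), of which Mest went from 3420.0 to 900.5 and 404 cpm. For Cldn5 no gene came above r = 0.815 (Tm9sf2, then Uty, Riox2, Adgrv1 and Liph), at a level of few reads. The 9 pools fall into 3 stages, so these values mainly set stage means side by side, and they have no test.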

How the data were processed

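The authors aligned SLAM-seq reads to mm10 with SlamDunk and added up the exons of every gene, per their methods. The deposited tables hold, for each gene and library, counts of covered T positions (several per read, so not independent), read levels in cpm (per 1000000 assigned reads), the fraction of covered T positions read as C, and a half-life with its R2. Whether counting used strand is not given in the sources used here. Dividing cpm by the value of 1 read gave whole reads (within 0.01) for 100% of values. Libraries held 228.7 to 629.1 M covered T positions.

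The members and gene lists were chosen with earlier results of these data known. Expression was tested on the covered-T counts with edgeR 4.0.16 in R 4.3.3 (quasi-likelihood, TMM) for genes above 10 counts in every library compared, with Benjamini-Hochberg adjustment over all genes tested. Calls needed an adjusted p under 0.05, and between stages also a log2 change beyond 1. The SE given with an edgeR change is its absolute log2 change over the square root of its F statistic. DESeq2 1.42.0, recovered reads, no filter, no TMM factors, other chase times, the pool as a block and leaving out each pool were alternatives. Half-lives were refitted as exponential decays where coverage was above 500 at all times, and kept between 0 and 24 h with R2 over 0.6 in all 3 pools. Of 109733 refits, 4 differed from the deposited value by over 1%. Standardized half-lives were tested with limma 3.58.1. The fits were tested on simulated data.

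All 9 genes are described. For each wider list, at most the 2 largest rises and 2 largest falls among called genes are named, besides 1 exception marked in the text, and for Slco1c1, Cldn5 and Slc2a1 the 5 genes of highest Pearson's r over pools among those with a mean of at least 1 cpm. Gene names came from GENCODE M21 for 51678 of 53491 identifiers.

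Wells of a letter come from 1 pool within a stage. The deviations of its 0 h and 12 h wells from the stage means correlated at r = 0.15 to 0.47 across genes. Between stages equal letters gave -0.10 to 0.12. The text gives the blocked value where it changes a call.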

Additional observations from a re-analysis of the deposited data

Results flagged for a closer look

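The total level of Slco1c1 changed in opposite directions through the chase at the earlier stages. From 0 h to 12 h its log2 level went up in all 3 E11.5 pools, by 3.43, 2.12 and 1.61, and down in all 3 E14.5 pools, by -0.20, -0.28 and -0.38. The fitted difference between these changes, E14.5 minus E11.5, was -3.05 on the log2 scale, and it was not tested, because the 0 h libraries in it had chosen the gene.

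The change of Mfsd2a through the chase differed between E16.5 and E11.5 by 0.60 on the log2 scale (edgeR adjusted p = 0.0057; 5.6e-05 with the pool as a block), lower at 12 h in 3 of 3 pools at E11.5 and higher in 3 of 3 at E16.5.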

How the results depend on the processing

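Counts of genes are given as higher and then lower, and the 8 genes are those other than Slco1c1. With no fold limit, the E14.5 against E11.5 step had 4620 and 4333 genes, and the E16.5 against E14.5 step 4433 and 4682, with 2 of the 8 lower. On recovered reads 964 genes fell in the first step. At the second step 0 of the 8 were lower by DESeq2, where Mfsd2a was just inside the fold limit, and 0 in the 12 h libraries, in which Pecam1 gave -0.81 and Cdh5 -1.15, the opposite sign to 0 h. The cause was not tested.

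For 12 h against 0 h, a 2-fold limit left 250 and 446 genes at E11.5 (1 and 1 of the 8), 127 and 246 at E14.5, and 117 and 375 at E16.5 (0 of the 8 higher). Scaling by library totals gave 1195 and 2481 genes at E11.5, and log2 changes of -0.0034 for Slco1c1 and -0.038 for Flt1 at E16.5. At E14.5, DESeq2 called 1634 genes lower, and recovered reads with no filter called 1621 lower, with Cdh5 at 0.12. At E16.5 recovered reads called 0 of the 8 lower, with Flt1 at -0.047, or 2 lower with no filter, with Flt1 at -0.013. Against 2 h in place of 0 h, Cldn5 gave -0.32 at E11.5, with 1 of the 8 higher. At E14.5 Pecam1 gave -0.38 and Mfsd2a -0.19. At E16.5 1417 genes were lower and 1 of the 8 higher, with Cldn5 at 0.041 and Tek at 0.40.

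With the replicate block, which pairs the wells of a pool, 3358 and 3042 genes were called at E11.5, 2036 and 1873 at E14.5, and 3496 and 3209 at E16.5 (2 of the 8 lower). Low genes changed sign under it, Pecam1 at E11.5 to 0.019, Cdh5 at E14.5 to 0.48, and Flt1 and Tek at E16.5 to -0.011 and 0.061. The letters pair nothing between stages, where the replicate block gave 1487 and 1470 genes for the first step and 1329 and 1082 for the second.

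Half-lives differed between stages for 299 transcripts, against 2296 in hours, 547 at an R2 over 0.8, 161 without the 0 h point and, by limma, 0 with the replicate block (1861 at an unadjusted p under 0.05). Neither Mfsd2a nor Slc2a1 was among them under any of these.

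Without any 1 pool, the first step had 1442 to 1623 and 1417 to 1557 genes (0 and 2 to 4 of the 8), and the second 1233 to 1366 and 969 to 1142 (0 to 1 and 0 to 1). The chase gave 621 to 1639 and 330 to 1044 genes at E11.5 (0 to 2 and 1 to 2 of the 8), fewest without pool A, and 725 and 457 without pool B. It gave 283 to 454 and 297 to 408 at E14.5, all under the full count (0 of the 8), and 972 to 1811 and 792 to 1417 at E16.5 (0 to 2 and 0 to 1), fewest without pool A. Between 3 and 267 transcripts differed in half-life, 25, 3 and 28 of them without E16.5 pool A, B or C. Ranges that crossed 0 were those of Cldn5 in all comparisons (-0.67 to 0.11, -0.0997 to 0.91, and for the chase -0.11 to 0.48, -0.81 to 0.48 and -0.75 to 0.17), Pecam1 (-0.49 to 0.074 at E14.5 against E11.5, -0.13 to 0.084 and -0.15 to 0.37 for the chase at E11.5 and E14.5), Kdr (-0.10 to 1.06 at E16.5 against E14.5, -1.36 to 0.13 for the E14.5 chase), Cdh5 (-0.44 to 0.48, E14.5 chase), and at the E16.5 chase Flt1 (-0.16 to 0.10), Slco1c1 (-0.038 to 0.11) and Tek (-0.52 to 0.85), besides the Slco1c1 half-life (-0.73 to 0.34 z units).

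Depth limits the low genes, most of which rest on fewer than 30 reads in a library at 0 h.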
